A study of Rattus norvegicus with 8 samples.

Results

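The level of 8 genes of inhibitory (GABA) signalling was followed over 8 arrays of rat medial thalamus. They were chosen by name: Gad1 and Gad2 make GABA, Slc32a1 loads it into vesicles, Slc6a11 and Slc6a13 take it up, Abat breaks it down, and Pvalb and Sst mark classes of inhibitory neurons. The scanner files held 10 probes for these 8 genes (3 for Gad1, 1 for each of the others) among 41012 distinct probes, which carry 15541 genes named in RefSeq. All 10 passed the filter on dim probes, which kept 27154 probes.

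The tissue came from male Sprague-Dawley rats that were conscious during the sessions, 4 conditioned with tracheal occlusions (short blocks of the windpipe) and 4 surgical controls that went through sessions with no occlusion. Sessions took place on each of 10 days, an occlusion spanned 3 to 10 breaths with about 30 s to recover, and tissue was taken from rats killed at most 10 min after the last session. The ages of the rats are not given in the sources used here, and neither is how the medial thalamus was separated from its neighbours. Each array carried labelled RNA of 1 sample, and 2 arrays of each group lay on each of 2 slides: slide 1 held occlusion arrays 1 and 3 and control arrays 1 and 4, and slide 2 held occlusion arrays 2 and 4 and control arrays 2 and 3. The question was whether the transcripts of inhibitory signalling differ in the medial thalamus after this conditioning, and which of them move together from array to array.

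GABA is made from glutamate by the 2 glutamate decarboxylases, pumped into vesicles by the transporter that Slc32a1 encodes, cleared by plasma membrane transporters and degraded by GABA transaminase. In the rodent thalamus outside the visual relay, inhibitory cell bodies are rare. Most inhibition of relay neurons comes from the reticular nucleus, a thin sheet of parvalbumin-rich and partly somatostatin-containing neurons along the edge of the thalamus, and from regions outside it such as the zona incerta and the pallidum. Transcripts of Gad1, Gad2 and Slc32a1 in medial thalamus tissue are therefore expected mainly from the few inhibitory cell bodies that it holds, while the uptake and breakdown genes are also used by glia and other cells.

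The Gad1 values come from 3 probes that read separate stretches of the transcript, so the pair that can be read through without a stop codon are shown together with the Gad2 probe, and the Abat and Slc6a11 probes are shown as the contrast among the genes of uptake and breakdown. All are 60 bases, in the orientation given in the files, with positions on rat assembly rn3 as in the files. The exon or untranslated region beneath them is not stated, because no rn3 annotation was used here.
Gad1 probe A_44_P115461, chr3:52711459-52713893, plus strand: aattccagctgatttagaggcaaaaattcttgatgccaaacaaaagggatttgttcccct
Gad1 probe A_44_P243102, chr3:52709400-52709459, plus strand: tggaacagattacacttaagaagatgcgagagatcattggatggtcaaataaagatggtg
Gad2 probe A_44_P554928, chr17:96332395-96332454, plus strand: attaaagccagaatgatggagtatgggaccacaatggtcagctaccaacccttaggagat
Slc6a11 probe A_44_P391345, chr4:150440112-150440919, plus strand: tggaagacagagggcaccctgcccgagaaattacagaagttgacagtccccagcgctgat
Abat probe A_44_P308925, chr10:7047983-7048042, minus strand: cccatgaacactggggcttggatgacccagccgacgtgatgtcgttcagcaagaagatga
The first Gad1 probe covers 2435 bases of the chromosome and the Slc6a11 probe 808, so each is split over a gap in the genome and reads RNA from which that gap is missing. The second Gad1 probe lies upstream of the first, and the third, A_44_P536310 at chr3:52725286-52725345, lies farthest downstream, with a stop codon in every frame. It was the brightest of the 3 and stands for Gad1 below.

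Levels are log2 processed signal minus the array's 75th percentile, so a difference of 1 is a doubling, and levels of different probes are not compared with each other. Differences are occlusion minus control with 4 arrays in each group, a standard error (SE) and a 95% interval from limma's moderated test, and p-values adjusted with Benjamini-Hochberg over all 27154 probes. No probe of any gene passed an adjusted p of 0.05: 0 of the 10 probes, against 0 of 27154 (0%), the smallest adjusted p being 0.403. At an unadjusted limma p under 0.05, 5 of the 10 probes (3 of the 8 genes) had lower means on occlusion arrays, where 4.61% of all probes did. Among these 5 are 2 dim Gad1 probes that passed the filter through the control arrays, and with a filter on all 8 arrays the count was 3. Under that filter 2854 of all 23204 kept probes had such a p, in either direction. For 2 of the 10 probes, both of Gad1, every occlusion array lay below every control array, against 2.82% of all probes; one of them, A_44_P115461, is among those dim probes, which leaves A_44_P536310. The median difference over the 8 genes was -1.26, beside 0.02 over all kept probes. A lower mean was found for 7 genes and a higher one for 1, Slc6a11, while over all probes 46.4% had a lower mean. Among the 7 are Slc6a13 and Abat, which differed by only -0.01 and -0.03.

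Gad1 encodes the decarboxylase GAD67, which makes most of the GABA of resting neurons. On occlusion arrays 1 to 4 its brightest probe read -2.69, -3.14, -0.90 and -1.83, and on control arrays 1 to 4 it read 0.01, 0.23, 1.99 and -0.70. The groups did not overlap, but the gap was narrow, between occlusion array 3 and control array 4. The means were -2.14 ± 0.99 (SD, n = 4) and 0.38 ± 1.14 (SD, n = 4), a difference of -2.52 (SE 0.65, 5.75-fold, 95% interval -4.01 to -1.04) that did not pass in limma (adjusted p = 0.403). Among the 27154 kept probes 6, itself included, had a difference as low or lower. In bulk tissue, fewer inhibitory cells and less RNA per cell cannot be told apart.

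The other Gad1 probes ordered the arrays in nearly the same way. A_44_P115461 read -5.87, -5.66, -3.30 and -3.95 on occlusion arrays and -2.29, -2.06, 0.07 and -2.999 on control arrays, again with no overlap, and differed by -2.87 (SE 0.78). A_44_P243102 read -6.03, -7.39, -3.83 and -5.07 against -2.94, -2.97, -0.77 and -4.04, which overlapped by occlusion array 3 and control array 4, and differed by -2.90 (SE 0.87). Both had an adjusted p of 0.403. Among the 4 occlusion arrays these dim probes exceeded background clearly on 2 and on 1, and among control arrays on all 4, so their low values lie near the floor of the assay. Over the 8 arrays the 3 probes correlated with each other at r = 0.97 to 0.99, and at 0.94 to 0.98 after the group means had been removed.

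Gad2 encodes GAD65, the decarboxylase of nerve terminals. Its levels were -2.31, -2.54, -0.65 and -1.61 on occlusion arrays and -0.59, 0.37, 1.85 and -1.25 on control arrays. The order of arrays resembled that of Gad1: control 3 was highest, occlusion 1 and 2 were lowest, but occlusion 3 stood above control 4, so that here the groups overlapped. The difference was -1.87 (SE 0.68, 3.67-fold, 95% interval -3.44 to -0.31), which did not pass in limma (adjusted p = 0.408).

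Slc32a1 encodes the vesicular transporter for GABA and glycine, the defining gene of inhibitory terminals. It read 0.59, 0.83, 3.102 and 1.03 on occlusion arrays and 3.06, 3.36, 4.61 and 2.64 on control arrays. Occlusion arrays 1, 2 and 4 lay below all controls, while occlusion 3 reached the level of control 1. The difference was -2.03 (SE 0.62, 4.09-fold, 95% interval -3.44 to -0.62; limma adjusted p = 0.403). In the plain processed signal, with no scaling, the same probe ran from 2433 to 12359 on occlusion arrays and from 12159 to 46897 on control arrays.

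**Figure D1:**
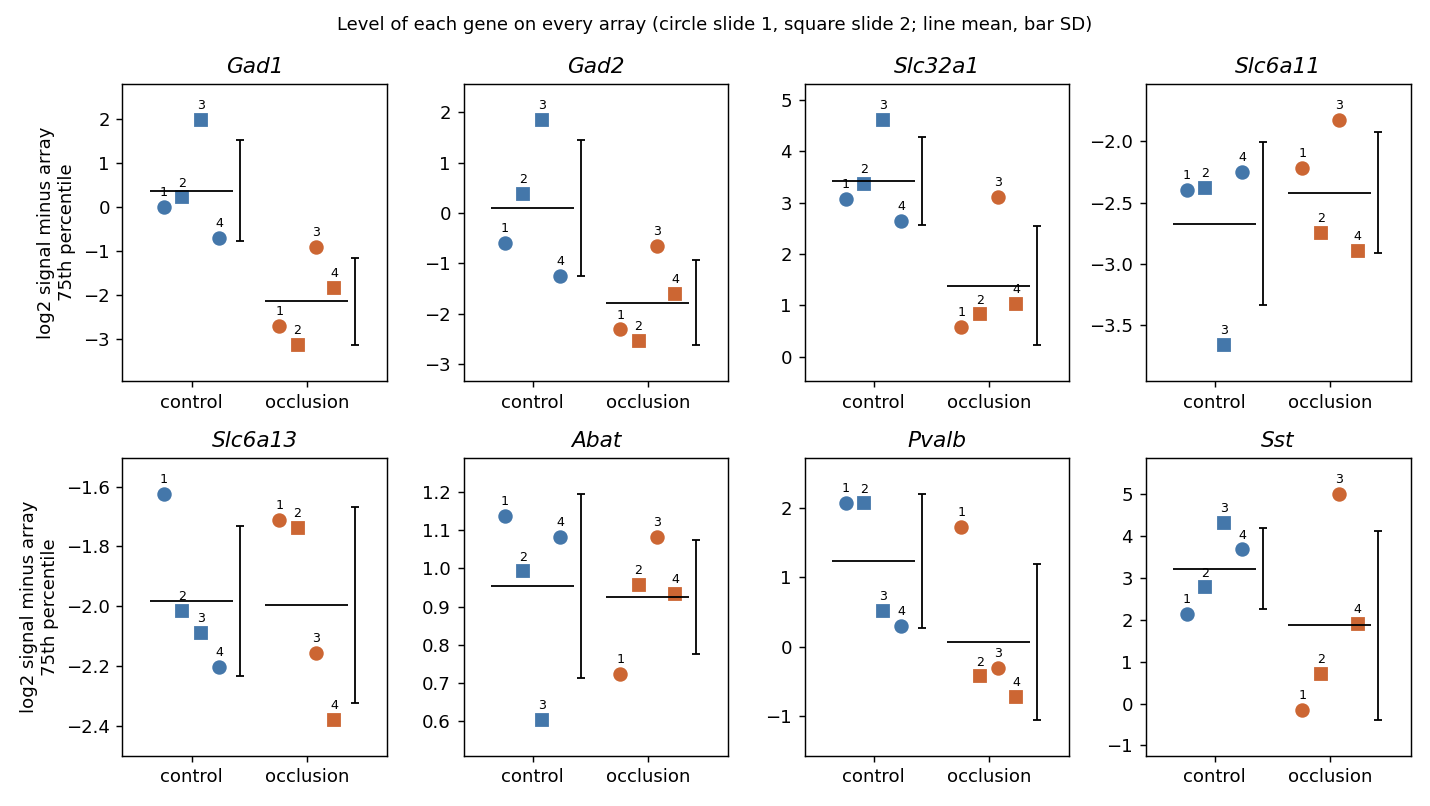
Level of each of the 8 genes on every array (y axis, log2 processed signal minus the array's 75th percentile), by group on the x axis, with the replicate number above each point, a line at the group mean and a bar of 1 SD. Control array 3 is highest for Gad1, Gad2 and Slc32a1 and lowest for Slc6a11, and occlusion array 3 is highest for Sst at 4.99.

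The genes of GABA uptake and breakdown showed no such separation. Slc6a11 encodes the transporter GAT-3, found largely on astrocytes, and read -2.21, -2.75, -1.82 and -2.89 on occlusion arrays and -2.39, -2.38, -3.67 and -2.25 on control arrays. Its difference was 0.25 (SE 0.36, 95% interval -0.58 to 1.08; limma adjusted p = 0.826). This sign rested on control array 3, the lowest of the 8, since without that array the difference was -0.08.

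Slc6a13 encodes GAT-2, which is known mainly from the meninges and vessels. Its levels were -1.71, -1.74, -2.16 and -2.38 on occlusion arrays and -1.62, -2.02, -2.09 and -2.20 on control arrays. The difference was -0.01 (SE 0.19, 95% interval -0.46 to 0.43; limma adjusted p = 0.989), and its sign turned with quantile normalisation, with scaling to the median and without each of 3 single arrays in turn. Abat encodes GABA transaminase, the enzyme that degrades GABA in neurons and glia. It read 0.72, 0.96, 1.08 and 0.93 on occlusion arrays and 1.14, 0.99, 0.60 and 1.08 on control arrays, a difference of -0.03 (SE 0.15, 95% interval -0.36 to 0.31; limma adjusted p = 0.962). Its SD within groups was 0.20, below the median of 0.25 over all kept probes, so its interval is the tightest of the 8 genes and leaves out a change as large as the point estimate of Gad1, Gad2 or Slc32a1.

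The markers of inhibitory neuron classes varied widely between animals. Pvalb encodes parvalbumin, a calcium buffer of fast-spiking interneurons and of the reticular nucleus. It read 1.73, -0.43, -0.31 and -0.72 on occlusion arrays and 2.07, 2.06, 0.51 and 0.30 on control arrays. Its high arrays were only in part those of the synthesis genes. Control arrays 1 and 2, the highest for Pvalb, were also among the highest 3 for Gad1 and Gad2. Occlusion 1, by contrast, was among the highest 3 for Pvalb and the lowest or next to lowest for Gad1, Gad2 and Slc32a1. Control 3, the highest for those 3 genes, read 0.51 for Pvalb. The difference was -1.17 (SE 0.63, 95% interval -2.62 to 0.28; limma adjusted p = 0.512).

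Sst encodes somatostatin, a peptide of another class of interneurons and of hypothalamic neurons. Its levels were -0.14, 0.71, 4.99 and 1.90 on occlusion arrays and 2.13, 2.77, 4.2996 and 3.68 on control arrays. Occlusion array 3 was thus the highest of all 8, more than 5 log2 units above occlusion array 1. The probe was spotted 10 times on each array, and the SD between those spots, which covers spot noise within an array and nothing else, was 0.04 to 0.13. Between the 4 occlusion arrays the SD was 2.25. The difference was -1.35 (SE 1.04, 95% interval -3.74 to 1.04; limma adjusted p = 0.648). It was -2.40 without occlusion array 3 and -0.68 without occlusion array 1. Only 0.317% of kept probes had an SD within groups as large as that of Sst, 1.73, while Gad1, Gad2, Slc32a1 and Pvalb lay between 1.02 and 1.13.

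Slides are the batch that the file headers give, and each slide had 1 scan time. Differences within slide 1 and within slide 2, 2 arrays against 2 in each, were -1.45 and -3.59 for Gad1, -0.56 and -3.19 for Gad2, and -1.01 and -3.06 for Slc32a1. They were -0.47 and -1.86 for Pvalb and -0.48 and -2.23 for Sst. Both slides thus gave lower means for these 5 genes, with the larger size on slide 2, which held control array 3; whether the slides differ was not tested. For Slc6a11 the values were 0.30 and 0.20, for Slc6a13 -0.02 and -0.01, and for Abat -0.21 and 0.15. Without control array 3 the differences of Gad1, Gad2 and Slc32a1 were -1.99, -1.29 and -1.63.

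**Figure D2:**
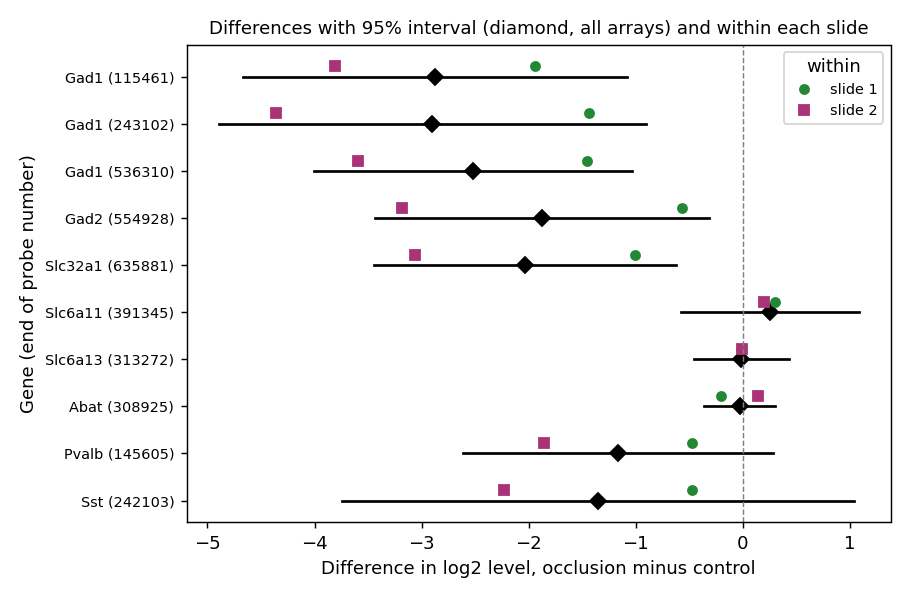
Difference in log2 level, occlusion minus control (x axis), for the 10 probes (y axis): diamonds with bars are the estimate and 95% interval over all arrays, green circles slide 1 and purple squares slide 2. The 3 Gad1 probes, Gad2 and Slc32a1 lie between -2.90 and -1.87, while the estimates of Slc6a11, Slc6a13 and Abat lie between -0.03 and 0.25.

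Which genes move together was asked for all 28 pairs over the 8 arrays, with Pearson's r, Spearman's rho and an exact two-sided permutation test over all 40320 pairings. After adjustment over the 28 pairs, 3 passed, and they are the 3 pairs among Gad1, Gad2 and Slc32a1. Gad1 and Gad2 had r = 0.97 (exact permutation p = 9.9e-05, adjusted p = 0.00139, rho 0.98). Gad1 and Slc32a1 had r = 0.96 (exact permutation p = 4.0e-04, adjusted p = 0.0037, rho 0.90), and Gad2 and Slc32a1 r = 0.94 (exact permutation p = 9.9e-05, adjusted p = 0.00139, rho 0.95). The synthesis enzymes and the vesicle transporter thus ordered the animals in almost the same way.

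That order was not only the order of the groups. After the group means had been removed, r was 0.97, 0.91 and 0.89 for these pairs, and after the slide means had been removed too it was 0.98, 0.92 and 0.93. A slide holds 4 arrays, too few for an r of its own. Without the arrays with the extreme values of Gad1 (occlusion 2 and control 3), r was 0.93, 0.94 and 0.90.

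Sst went part of the way with them. Its r was 0.82 with Slc32a1 (exact permutation p = 0.016, adjusted p = 0.112, rho 0.83), 0.71 with Gad1 and 0.70 with Gad2 (adjusted p = 0.238 for both, exact permutation test). With group means removed these were 0.85, 0.71 and 0.63, but without the 2 arrays farthest from the median of the other gene they were 0.58, 0.57 and 0.57. Pvalb had r = 0.31 with Gad1, 0.25 with Gad2 and 0.25 with Slc32a1, and with the group means removed -0.26, -0.20 and -0.30. Pvalb and Sst had r = -0.23, and -0.60 with the group means removed (adjusted p = 0.85 for the former, exact permutation test). Occlusion array 1 was high in Pvalb and lowest in Sst, and occlusion array 3 was highest in Sst with Pvalb at -0.31.

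Uptake and breakdown genes did not follow the synthesis genes in any pair that passed. Slc6a11, Slc6a13 and Abat had r between -0.47 and -0.03 with Gad1, Gad2 and Slc32a1. For Abat the sign was not stable: without occlusion array 2 and control array 3 its r was 0.82 with Gad1 and 0.65 with Gad2, against -0.16 and -0.28 over all 8 arrays. Slc6a11 and Abat had r = 0.67 with each other (adjusted p = 0.288, exact permutation test), which was -0.02 without occlusion array 3 and control array 3. Slc6a13 had r = 0.59 with Pvalb and -0.59 with Sst (adjusted p = 0.409 for each, exact permutation test). Over all 28 pairs the median r was 0.07, with 14 pairs above 0 and 14 below; it was 0.46 without control array 3 and -0.01 without occlusion array 4.

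**Figure D3:**
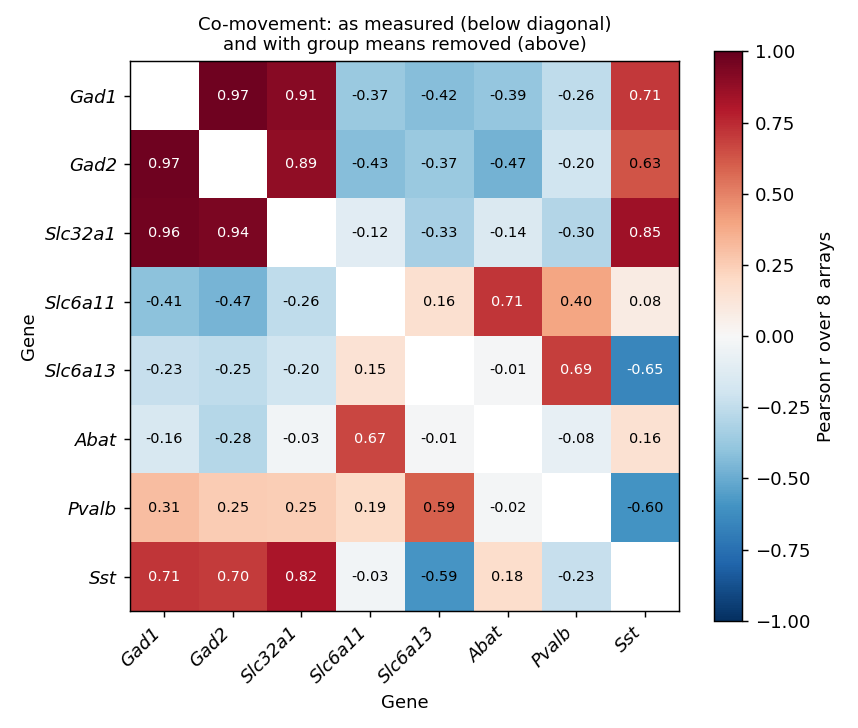
Pearson's r over 8 arrays for the 28 pairs of genes (both axes list the genes, the colour bar gives r), as measured below the diagonal and with the group means removed above it. The block of Gad1, Gad2 and Slc32a1 runs from 0.94 to 0.97 below and from 0.89 to 0.97 above the diagonal.

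The mean of the standardised levels of Gad1, Gad2 and Slc32a1 gives 1 value per array, in SD units. It was -1.12, -1.21, 0.20 and -0.69 on occlusion arrays 1 to 4 and 0.39, 0.72, 1.71 and -0.004 on control arrays 1 to 4. The genes whose levels followed it most closely, out of 13284 genes ranked by r over the 8 arrays, were Ern1 (0.99), Rerg (0.98), RGD1308957 (0.97), Crocc (0.97), Zbed5 (0.97), RGD1562739 (0.96), RGD1310677 (0.96), Slc27a3 (0.96), Avpr1a (0.96) and Baiap2 (0.95). Ern1 encodes a stress sensor of the endoplasmic reticulum, Rerg a small GTPase, Avpr1a a vasopressin receptor and Baiap2 a scaffold of dendritic spines. Those that ran most closely against it were Tyms (-0.996), Vil1 (-0.995), Sel1l3 (-0.98), Rab3ip (-0.98) and Gpr61 (-0.98). Tyms encodes thymidylate synthase, Vil1 an actin-bundling protein and Gpr61 an orphan receptor. In all, 88 genes had r above 0.9 and 174 below -0.9; these values are a description of 8 arrays, with no test. Sst ranked 620th and Pvalb 4001st of the 13284.

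RefSeq's promoter table (assembly GRCr8) held 6 of the 8 genes. Since Gad1, Gad2 and Slc32a1 moved together and Sst only in part, their promoters are shown from 250 bases before the annotated start to 30 after it. Capitals mark matches on either strand to 3 motifs chosen after the values and sequences had been seen: the cAMP response element TGACGTCA, the homeodomain core TAATTA and the TATA box TATAAA.
Gad1, chr3:75777202-75777481, plus strand: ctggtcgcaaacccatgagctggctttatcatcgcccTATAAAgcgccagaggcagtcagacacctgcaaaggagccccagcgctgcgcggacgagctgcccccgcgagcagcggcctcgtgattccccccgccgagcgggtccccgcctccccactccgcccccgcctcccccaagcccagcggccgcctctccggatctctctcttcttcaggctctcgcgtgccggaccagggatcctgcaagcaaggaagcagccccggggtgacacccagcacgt
Gad2, chr17:89671468-89671747, plus strand: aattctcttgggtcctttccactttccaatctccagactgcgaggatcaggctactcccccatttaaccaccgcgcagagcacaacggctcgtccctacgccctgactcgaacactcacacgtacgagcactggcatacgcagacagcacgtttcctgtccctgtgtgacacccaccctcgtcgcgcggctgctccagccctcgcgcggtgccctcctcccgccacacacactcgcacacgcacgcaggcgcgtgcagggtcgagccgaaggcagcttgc
Slc32a1, chr3:167686995-167687274, plus strand: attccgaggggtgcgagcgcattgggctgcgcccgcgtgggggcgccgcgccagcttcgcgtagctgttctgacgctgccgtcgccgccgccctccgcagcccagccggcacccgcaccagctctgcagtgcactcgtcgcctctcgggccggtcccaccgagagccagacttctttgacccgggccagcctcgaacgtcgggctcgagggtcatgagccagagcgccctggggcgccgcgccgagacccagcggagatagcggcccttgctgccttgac
Sst, chr11:90461296-90461575, plus strand: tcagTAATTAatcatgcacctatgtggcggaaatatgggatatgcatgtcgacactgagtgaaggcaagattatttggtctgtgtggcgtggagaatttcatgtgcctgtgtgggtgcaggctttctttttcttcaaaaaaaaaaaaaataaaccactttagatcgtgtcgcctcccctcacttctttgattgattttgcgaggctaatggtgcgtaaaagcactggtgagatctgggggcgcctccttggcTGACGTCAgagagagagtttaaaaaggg
Over all 33469 promoters in windows of this length, 1.78% held TGACGTCA, 5.17% TAATTA and 13.7% TATAAA. The 3 co-moving genes shared no match: Gad1 held TATAAA from 213 to 208 bases before the start, and Gad2 and Slc32a1 held none of the motifs. Their windows were rich in G and C, at 68.6%, 62.9% and 72.5% against a median of 51.4%, but so were those of Slc6a11 (73.6%) and Pvalb (61.1%), which did not pass with them in any pair. The Sst window had 44.6%, with TGACGTCA at bases 3 to 10 after the annotated start and TAATTA from 246 to 241 before it. All these positions rest on the annotated start, and where transcription begins was not checked. Slc6a11 and Pvalb held no match.

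Another 5 lists of genes of the pathway were set beside the 8. In none did any gene pass in limma, so each is described by its counts and median difference, beside the 0.02 over all kept probes. Other genes of GABA metabolism and transport (14 of 14 kept) had 5 higher and 9 lower means, with a median of -0.10. Glul, the glutamine synthetase of astrocytes, differed by -0.39 over 3 control arrays, because an outlier flag removed the other. The glutamate transporter Slc1a1 differed by 0.42 (SE 0.17).

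Genes of the receiving side were counted in the same way. GABA receptor subunits (14 kept of 20 on the array) had 10 higher and 4 lower means, with a median of 0.26. Gabrd, the extrasynaptic delta subunit that is abundant in thalamic relay neurons, read 4.27, 3.87, 3.31 and 3.57 on occlusion arrays and 2.60, 1.44, 1.098 and 3.52 on control arrays. Its difference was 1.59 (SE 0.51; limma adjusted p = 0.403), and its partner Gabra4 differed by 0.97 (SE 0.36). Gabra5 differed by -0.32. Inhibitory synapse and chloride genes (12 kept of 12) had 9 higher and 3 lower means with a median of 0.16. They ran from Igsf9b, an adhesion molecule of inhibitory synapses, at 0.79 to the gephyrin gene Gphn at -0.15 and the chloride importer Slc12a2 at -0.40. The Igsf9b probe was dim, well above background on 4 occlusion arrays but on only 2 control arrays.

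Transcription factors of inhibitory neurons (20 kept of 28) had 5 higher and 15 lower means, with a median of -0.19. Npas1 differed by -1.27 (SE 0.67) and Pax6 by -0.66 (SE 0.25), and at the other end Zfhx3 by 0.64 and Nkx2-2 by 0.13. Other interneuron peptides, calcium buffers and markers (26 kept of 30) had 12 higher and 14 lower means, with a median of -0.21. Crhbp, which binds corticotropin-releasing hormone and is found in somatostatin neurons, read -3.79, -4.27, -2.61 and -3.35 on occlusion arrays and -1.39, -0.05, -1.73 and -2.25 on control arrays. Those groups did not overlap, which in this direction held for 2 of the 26 kept genes of this list and for 2.82% of all kept probes. The difference of Crhbp was -2.15 (SE 0.51, limma adjusted p = 0.403). Cnr1, the cannabinoid receptor of cholecystokinin interneurons, differed by -0.76, while Cck itself differed by 1.36 with saturated spots on 5 arrays, and the channel gene Kcnc2 differed by 1.16.

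Markers of the cell types that the dissection could hold were set beside the GABA genes, with the 8 genes removed from each list. Of the relay neuron markers, which define most of the thalamus, all 16 on the array were kept, 15 with a higher and 1 with a lower mean on occlusion arrays. Saturated spots were found on at least 1 array for 3 of the 16. At an unadjusted limma p under 0.05, 7 of the 16 were higher and 0 lower, where 1759 of the 27154 kept probes were higher. After adjustment 0 of the 16 passed. The array means of this list ran from 0.16 to 0.62 on occlusion arrays and from -0.82 to 0.21 on control arrays. Ntng1 and Lef1 differed by 1.29 and 1.45, and Lhx2 and Cdh9 by 0.13 and -0.23. Of the reticular nucleus markers, 8 of 9 were kept, with Esrrg too dim, and their array means ran from -5.06 to -3.27 and from -4.10 to -2.23. Spp1, also made by other cells, differed by -3.04 (SE 1.14) and Meis2 by -2.40 (SE 1.31), while Sema3e differed by 0.42. The Sema3e probe was well above background on only 2 occlusion and 2 control arrays. Meis2 was so on 3 of the 4 occlusion arrays and read -7.81 on occlusion array 2. Markers of both relay and reticular neurons thus passed the filter in tissue labelled medial thalamus, some of the reticular ones near background.

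Across the 8 arrays the relay list ran against the mean of Gad1, Gad2 and Slc32a1, with r = -0.86 (exact permutation p = 0.0057, adjusted p = 0.0685 over 12 marker lists, rho -0.90). It was -0.89 without occlusion array 2 and control array 3, and -0.66 with the group means removed. The reticular list had r = 0.75 (exact permutation p = 0.0333, adjusted p = 0.2, rho 0.60), which was 0.07 without those arrays. With the group means removed it was 0.70, and with the slide means removed too 0.83, both over all 8 arrays. The striatal list (14 genes; Foxp1 0.71, Pde1b 0.47, Drd2 -0.80 and Bcl11b -0.83) had r = 0.56 and the hypothalamic and zona incerta list (13 genes with a value on every array; Gal 0.78, Hmx3 0.13, Npy -0.56 and Cartpt -1.07) 0.15, with adjusted p = 0.321 and 0.713 in the exact permutation test. The other 8 lists had adjusted p between 0.321 and 0.574. Between the groups, 12 of the 14 oligodendrocyte markers had lower means on occlusion arrays (median difference -0.46), 7 of them at an unadjusted limma p under 0.05, and so did 7 of the 10 choroid plexus and ependyma markers (median -0.42), 4 of them at that p. No marker of either list passed after adjustment. Array means of the oligodendrocyte list (11 genes with a value on every array) ran from 1.25 to 1.94 on occlusion arrays and from 1.65 to 2.37 on control arrays, and those of the choroid plexus list from -1.63 to -1.04 and from -2.22 to -0.60. The hypothalamic list was highest on occlusion array 3 (0.998), the array with the highest Sst, where the other occlusion arrays lay between -2.25 and -0.79. Control array 4 was the next highest at 0.40, and Cartpt, a peptide gene of that list, read 4.06 on occlusion array 3 and -3.64 on occlusion array 1. Of the 14 kept hypothalamic markers, 4 had saturated spots on at least 1 array. What part the make-up of the dissected tissue has in the differences of the GABA genes was not tested.

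**Figure D4:**
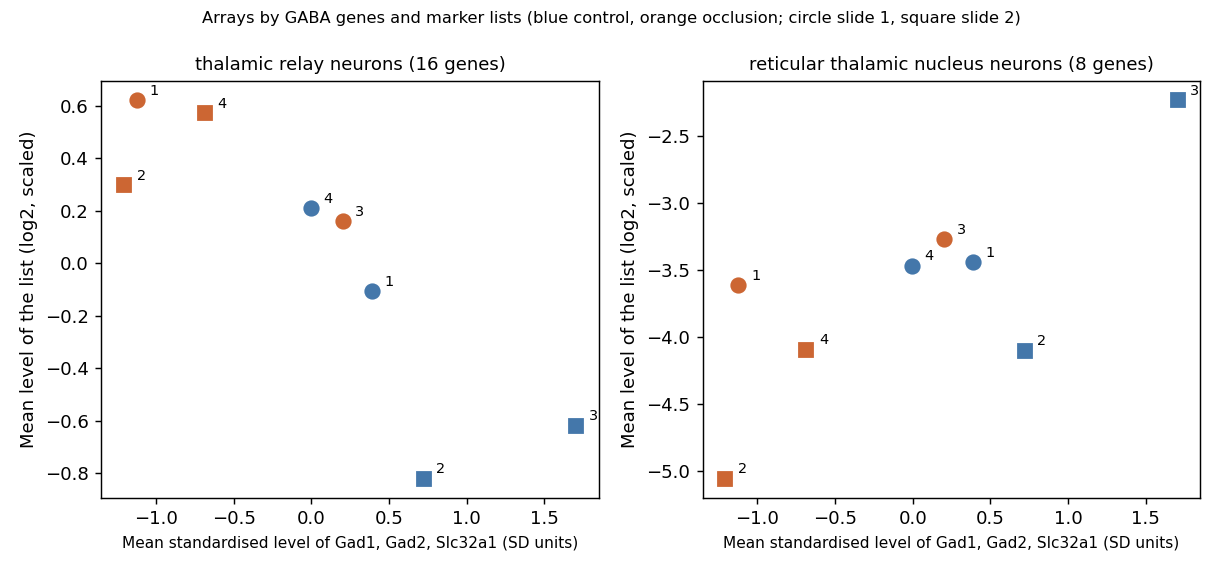
Mean standardised level of Gad1, Gad2 and Slc32a1 (x axis, SD units) against the mean scaled log2 level of relay neuron markers (left) and reticular nucleus markers (right), 1 point per array with its replicate number. In the left plot occlusion arrays 1, 2 and 4 lie at the upper left and control arrays 2 and 3 at the lower right; in the right plot occlusion array 2 and control array 3 mark the ends.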

How the data were processed

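Per the labels, each array received Cy3-labelled cRNA made from 1 µg of total RNA. Per the file headers, Agilent Feature Extraction 9.5.1.1 scanned 1 channel and wrote the deposited intensity values, a processed signal that is background-subtracted and linear, with no scaling between arrays. The design text speaks of a reference design, but with 1 channel scanned the arrays were analysed as 1-colour arrays. Since that text counts 4 animals per group, the replicates are treated as animals. A deposited table covering every array repeats this intensity within a relative difference of 0.005. Each array carried 45018 spots, 43379 of them no controls; 65.0% to 71.6% were well above background and 1.05% to 1.55% saturated, and the 75th percentile lay between 1439 and 2216.

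Outlier-flagged spots were dropped, log2 processed signal was scaled to the array's 75th percentile over all spots that are no controls, and spots of a probe were averaged. Kept probes were well above background on at least 4 of 8 arrays, with at least 2 values per group. Groups were compared with limma 3.58.1 in R 4.3.3 (lmFit, eBayes, Benjamini-Hochberg, threshold 0.05), tested on simulated data. The number of arrays limits the precision.

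Members were matched on the files' gene names; other genes were named through a RefSeq table (GRCr8), used for names only. Members and lists were chosen with earlier results of these data known. The text names all 8 genes, in each pathway list and in 4 marker lists (relay, reticular, striatal, hypothalamic) the 2 highest and 2 lowest by limma's statistic, and the 10 genes most like and 5 most unlike the mean of Gad1, Gad2 and Slc32a1. A few list genes that meet it are not reported here. The correlations with marker lists and the motif search were added after the design had been written. Alternatives were other scalings, background correction, filters, outlier spots kept, variance models, array weights, the slide and the replicate number as blocks, each slide alone, the deposited table, all probes of a gene averaged, and each array left out.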

Additional observations from a re-analysis of the deposited data

Results flagged for a closer look

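In 2 cases an array stood apart from the other 3 of its group, with a gap, as a share of the group's range, above Dixon's 95% critical value for 4 samples. Among 22 group tests 2 were found, and chance gives about 1 in 20. Slc6a11 on control array 3 was the lowest of the control arrays at -3.67, with a gap of 0.899 of the range, on the array that was highest for Gad1, Gad2 and Slc32a1. Pvalb on occlusion array 1 was the highest of the occlusion arrays at 1.73, with a gap of 0.831, on an array that was low for those 3 genes.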

How the results depend on the processing

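No member probe passed an adjusted p of 0.05 in limma under any alternative run, and Gad1, Gad2, Slc32a1, Pvalb and Sst had lower means on occlusion arrays under each of them. Over all kept probes the count past the threshold was 0 except for 1, no member, with normexp background correction. The median difference over the 8 genes was -0.47 on slide 1 alone and -2.04 on slide 2 alone. The count of the 8 genes with a lower mean ran from 5 without control array 1 to 8 without control array 3. Abat differed by 0.15 on slide 2 alone, and Slc6a13 by 0.034 with quantile normalisation and 0.013 with scaling to the median. With single arrays left out, Slc6a11 ran from -0.078 to 0.41, Slc6a13 from -0.11 to 0.12 and Abat from -0.15 to 0.0375; the median r over pairs ran from -0.0102 to 0.46 and r of Gad1 with Slc32a1 from 0.94 to 0.98. The causes of these shifts were not tested. No label ties same-numbered arrays to each other. Their deviations from the group means correlated at 0.35 and 0.51 for numbers 1 and 2, whose arrays also share a slide, and at -0.07 and -0.29 for numbers 3 and 4, whose arrays do not. With the replicate number as a block, the differences of Gad1, Gad2 and Slc32a1 were again -2.52, -1.87 and -2.03, with 0 member probes past the threshold (smallest limma adjusted p 0.451). At an unadjusted limma p under 0.05 there were 7 member probes, against 5 without the block. Over all probes tested, 2760 of 26054 had such a p with the block and 3010 of 27154 without it. With the slide as a block, the smallest adjusted p among members was 0.242. Signal limits 2 of the 3 Gad1 probes, which lay near background on some occlusion arrays.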
